A study of Mus musculus with 7 samples.

Results

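The genes described here encode 9 proteins of the tight junction of the brain barrier: Cldn5, Cldn12, Cldn1, Ocln, Marveld2, Lsr, F11r, Tjp1 and Cgn. They were chosen by name. A gene was read from a probe set, a group of probes on the array, whose annotation gave that symbol alone, and from the brightest where there were several. All 9 were found, with 10 probe sets among the 33793 of the array, out of 22180 genes that have such a probe set. The study measured RNA of vascular fragments, pieces of small vessels, from the brains of female C57BL/6N mice (C57BL/6 in the sample labels) aged 12 weeks. The treated group had received PDGF-CC, a ligand of the receptor PDGFR-alpha, by intracerebroventricular (ICV) injection (4 arrays), and the control group had received PBS by the same route (3 arrays). Both groups were killed 4 h after injection, and no other allele or agent is named for either. Nothing in the labels says whether an array held 1 mouse or a pool, so the p-values rest on a spread between samples that may be technical.

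Tight junctions seal the gap between neighbouring cells. In brain vessels they join endothelial cells into a continuous sheet that forces solutes to cross through the cells, and so form the physical part of the blood-brain barrier. Claudins and occludin are membrane proteins that span the membrane several times and meet their partners on the next cell, tricellulin and angulin-1 close the corners where 3 cells meet, and plaque proteins such as ZO-1 and cingulin tie the strands to actin. Claudin-5 is the main claudin of brain endothelium, whereas claudin-1 is typical of epithelia.

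None of the 9 genes differed in RNA level between the groups past the test. The arrays do not measure protein. With limma, 0 of the 9 passed an adjusted p of 0.05, and 0% of all 17734 probe sets tested passed it. The adjusted p of the 9 lay between 0.769 (Cldn1) and 0.995 (Cldn12). At an unadjusted threshold of 0.05 the count was again 0 of 9, against 6.04% of all probe sets tested. The count was 1 with the number in the sample descriptions as a covariate (Cldn1) and 1 without PBS array 3 (F11r). It was also 1 with the number in the sample titles as a replicate block (Cldn1, unadjusted p = 0.0082 by limma). For 0 of 9 were the PDGF-CC arrays all above or all below the PBS arrays, against 4.3% of all probe sets tested. By their means, 6 of the 9 were higher and 3 lower after PDGF-CC. The median difference was 0.036 on the log2 scale, against -0.0038 for all probe sets tested, and the median size of a difference was 0.060, against 0.078.

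How large a change the data still allow is given by the 95% interval of each difference. For 7 of 9 genes it lay within a 1.5-fold change either way, and 88.3% of all probe sets tested had such an interval. The exceptions were Cldn1, whose interval reached down to 0.448-fold, and Cgn, whose interval reached up to 1.67-fold. Without PDGF-CC array 1 Cgn was inside as well, and the count was 8. The intervals were narrowest for Cldn12, from 0.923-fold to 1.09-fold, and Marveld2, from 0.872-fold to 1.06-fold. These were the 2 genes with a value shared by 3 or more arrays, and such ties narrow the SD.

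**Figure D1:**
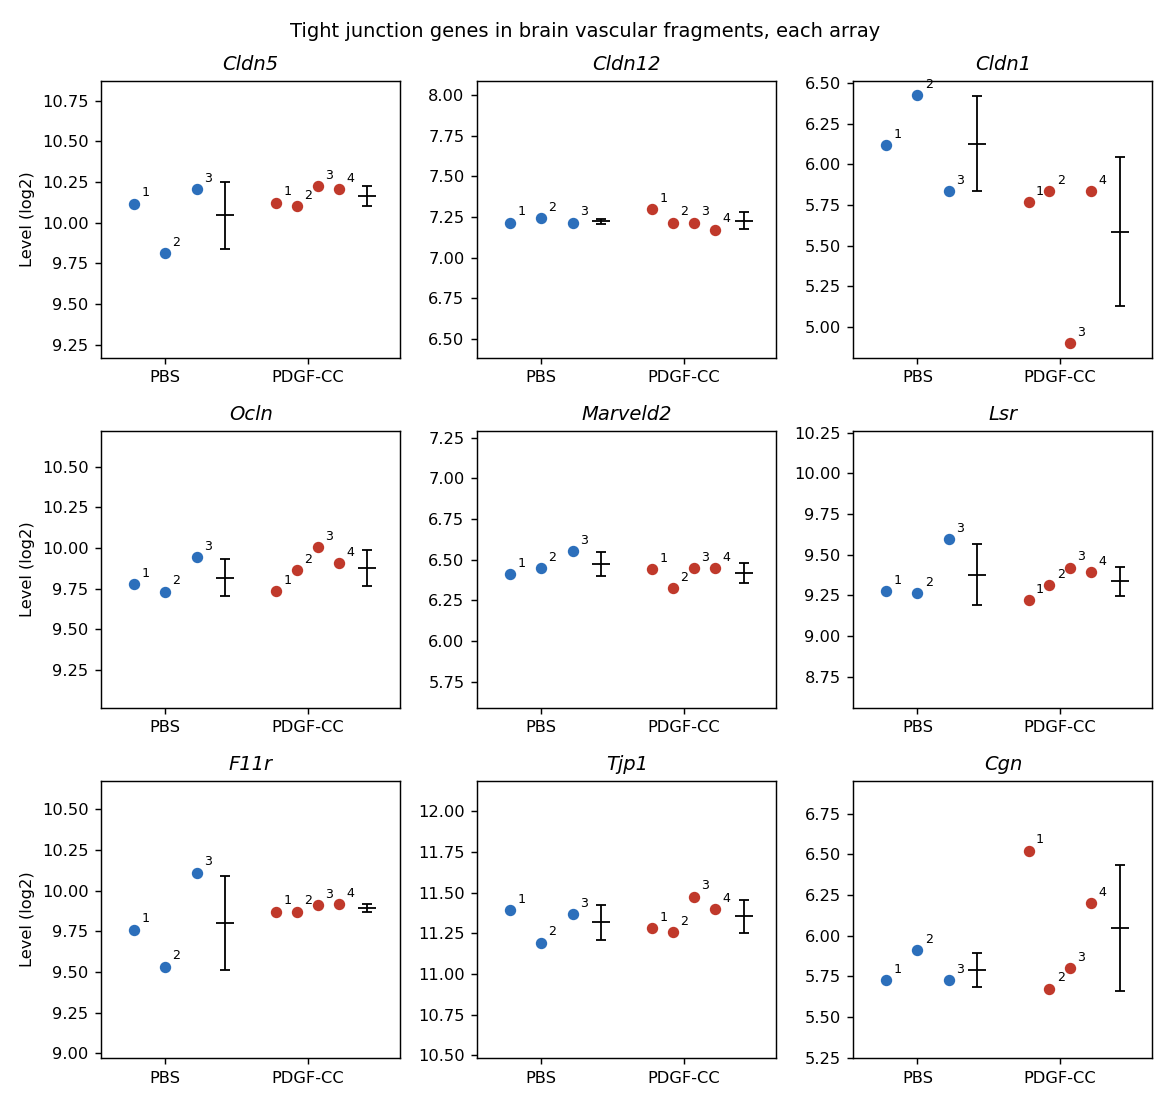
Level of each tight junction gene (log2) on each array, with PBS in blue and PDGF-CC in red, numbers giving the array within its group, and bars giving the mean and SD of the group. Every panel spans the same number of log2 units, and the 2 groups overlap or touch in each, with the widest scatter for Cldn1, from 4.90 to 6.43.

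The 3 promoter stretches below are shown because their genes stand for different results: Cldn5 is the defining claudin of this endothelium, Cldn1 had the largest difference and the widest scatter, and Lsr held the most copies of a repressor motif whose factor gene Snai2 is described further on. Each line holds the 250 bases before the transcription start in RefSeq (GRCm38.p6), 5′ to 3′, and capitals mark the E-box of Snail repressors.
Cldn5, chr16:18776597-18776846, plus strand: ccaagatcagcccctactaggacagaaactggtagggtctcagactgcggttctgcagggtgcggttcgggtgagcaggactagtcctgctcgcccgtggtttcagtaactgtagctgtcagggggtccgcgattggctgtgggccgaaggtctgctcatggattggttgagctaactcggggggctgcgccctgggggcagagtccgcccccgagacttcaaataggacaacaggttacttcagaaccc
Cldn1, chr16:26371840-26372089, minus strand: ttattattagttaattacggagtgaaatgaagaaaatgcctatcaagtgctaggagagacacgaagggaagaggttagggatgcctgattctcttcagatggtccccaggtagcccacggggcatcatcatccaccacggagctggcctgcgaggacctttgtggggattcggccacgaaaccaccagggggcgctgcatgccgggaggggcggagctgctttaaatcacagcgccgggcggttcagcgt
Lsr, chr7:30973470-30973719, minus strand: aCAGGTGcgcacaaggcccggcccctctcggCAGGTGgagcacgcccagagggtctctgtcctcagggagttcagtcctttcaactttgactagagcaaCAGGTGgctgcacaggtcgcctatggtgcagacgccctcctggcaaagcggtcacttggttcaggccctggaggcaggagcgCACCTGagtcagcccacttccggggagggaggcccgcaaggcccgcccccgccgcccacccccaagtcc

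The E-box searched, CAGGTG on either strand, is also read by other E-box factors such as Zeb1. It occurred in 4 copies before Lsr, in 1 copy before F11r, and in 1 of the windows of Ocln, so in 3 of the 9 genes. Some genes have several windows, and by window it was found in 3 of 13, against 17.2% of all 32851 promoter windows of this length. An ETS core, AGGAAG, the kind of site that Erg binds, was found for 1 of the 9 (Marveld2), in 2 of the 13 windows, against 29.5% of all windows. The SOX sequence ACAATG was found in 0 of the 13 windows, against 10.7% of all windows. The stretches of Cldn5 and Cldn1 held none of these. These are matches of letters in short windows and show no binding.

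Cldn5, which encodes claudin-5, was at a log2 level of 10.12, 10.10, 10.23 and 10.21 on PDGF-CC arrays 1 to 4 and at 10.12, 9.81 and 10.20 on PBS arrays 1 to 3. PBS array 2 was the low value, and the other 6 arrays lay within a narrow band. The difference was 0.12 ± 0.098 (log2, SE, n = 4 and 3; adjusted p = 0.787 by limma), a 1.09-fold higher mean with an interval from 0.925-fold to 1.27-fold. An exact permutation test over all 35 ways of dividing the arrays, 2-sided, gave p = 0.314, where the smallest possible p is 0.0286. Without PBS array 2 the difference was 0.0036, and without PBS array 3 it was 0.20.

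Cldn12 encodes claudin-12, a claudin without the usual end that binds plaque scaffolds. It was at 7.30, 7.22, 7.22 and 7.17 on the PDGF-CC arrays and at 7.22, 7.24 and 7.22 on the PBS arrays. It had the smallest spread of the 9, with a residual SD of 0.041 against a median of 0.13 over all probe sets tested, and the difference was 0.0015 ± 0.050 (adjusted p = 0.995 by limma). Of the 7 arrays, 4 held exactly the same value, which narrows the SD. Such ties were common on these arrays: 63.6% of probe sets tested had a value shared by 2 or more arrays, as had 5 of the 9 genes, and how they arose was not tested.

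Cldn1, the gene of claudin-1, showed the largest difference and the widest scatter. Its level was 5.77, 5.83, 4.90 and 5.84 on the PDGF-CC arrays and 6.12, 6.43 and 5.84 on the PBS arrays. PDGF-CC array 3 lay far below all others, and the highest PDGF-CC value equalled the lowest PBS value, so the groups touched. The difference was -0.54 ± 0.26 (log2, SE; adjusted p = 0.769 by limma), or 0.687-fold, and all 4 PDGF-CC arrays were below the PBS mean. The exact permutation p was 0.143. Without PDGF-CC array 3 the difference was -0.31, and over the arrays left out in turn it reached -0.69 (without PBS array 3).

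Most choroid plexus markers, like Cldn1, were lower by their means after PDGF-CC. Claudin-1 belongs to the junctions of choroid plexus epithelium, the secretory tissue in the ventricles, whose genes also include Ttr (transthyretin) and Kl (klotho). Of 10 such markers, all above the brightness filter, 9 were lower by their means after PDGF-CC. The groups did not overlap for 7 of the 10, against 4.3% of all probe sets tested. Below an unadjusted threshold of 0.05 were 9, against 6.04%, and 0 passed the adjusted one. This list, like the others, was chosen with earlier results of these data known. The mean level of the 10 was 6.26 to 7.10 on the PDGF-CC arrays and 7.15 to 7.60 on the PBS arrays. The marker that was not lower was the water channel gene Aqp1, at 0.083 ± 0.25. The lowest array for the marker mean was PDGF-CC array 3 and the highest was PBS array 2, as for Cldn1. Other arrays matched less: Cldn1 was at 5.84 on both PBS array 3 and PDGF-CC array 4, where the marker mean was 7.32 and 7.10. Cldn2, a dim claudin gene of choroid plexus outside this list, was at -0.053 ± 0.14 and lowest on PBS array 2, at 4.05. Kl was at -1.14 ± 0.30 and Ttr at -0.26 ± 0.10 (log2 difference, SE; adjusted p = 0.769 for each by limma). Arachnoid and perivascular fibroblast markers were also lower by their mean, 9 of 10 of them, at 6.24 to 6.54 on the PDGF-CC arrays and 6.51 to 6.68 on the PBS arrays. Pericyte markers had 7 of 8 lower (8.87 to 9.27 against 9.12 to 9.34), smooth muscle markers 5 of 5 higher (9.16 to 9.27 against 8.88 to 9.21) and microglial markers 6 of 7 higher, with 0 past the adjusted threshold. The part of any of these cell types in the Cldn1 difference was not tested. In such mixed samples fewer cells of a type and less RNA per cell cannot be told apart.

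**Figure D2:**
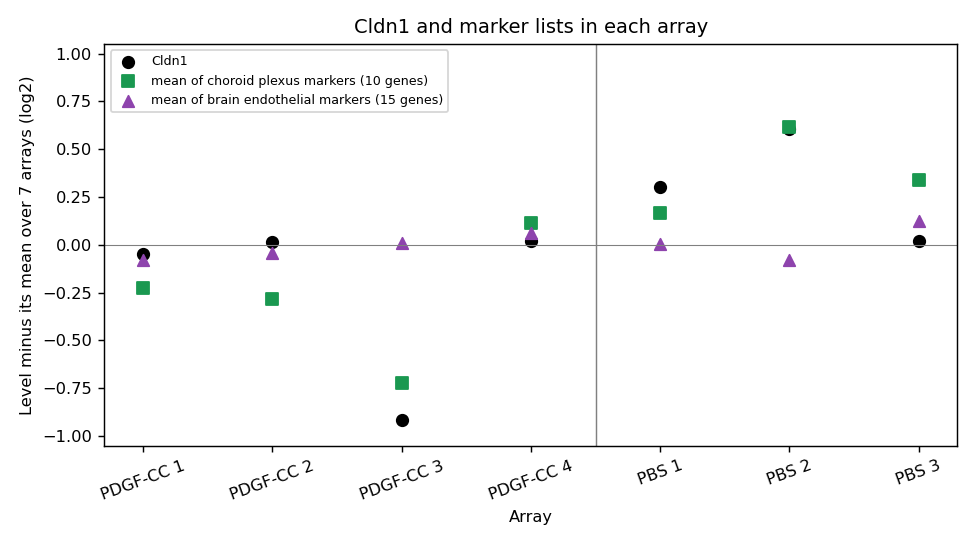
Cldn1, the mean of 10 choroid plexus markers and the mean of 15 brain endothelial markers on each array, each minus its own mean over the 7 arrays (log2). Cldn1 and the choroid plexus mean are both lowest on PDGF-CC array 3 and highest on PBS array 2, while the endothelial mean varies only from 10.41 to 10.61.

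Among the genes most like Cldn1 over the 7 arrays were Krt18, a keratin of simple epithelia, and Cd24a, a surface glycoprotein. Likeness was the root mean square difference between values centred on each gene's mean, over 14119 other genes. It was 0.11 for Krt18, 0.16 for Atp2b3, a plasma membrane calcium pump, and 0.17 for Cd24a, against a median of 0.45. Krt18 was at 6.23, 6.23, 5.17 and 6.11 on the PDGF-CC arrays and 6.24, 6.65 and 6.23 on the PBS arrays. It was lowest on PDGF-CC array 3 and highest on PBS array 2. For Cldn5 the nearest were Tulp4 at 0.026, and Gtf2a1 and Fn3krp at 0.032 each, against a median of 0.17. All 3 were lowest on PBS array 2. The choice by likeness favours such shared extreme arrays, so they are no separate result. Both medians are near the SD over 7 arrays of the gene itself (0.47 for Cldn1, 0.14 for Cldn5), roughly what a flat gene would give.

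Ocln encodes occludin, a tetraspan protein that organises the strands. It was at 9.73, 9.87, 10.00 and 9.91 on the PDGF-CC arrays and at 9.78, 9.73 and 9.94 on the PBS arrays, with overlapping groups. The difference was 0.060 ± 0.083 (adjusted p = 0.859 by limma), and it ran from 0.017 to 0.12 with each array left out in turn.

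The genes of the corner proteins did not differ past the test either. Marveld2, the gene of tricellulin, was at 6.44, 6.33, 6.45 and 6.45 on the PDGF-CC arrays and at 6.41, 6.45 and 6.56 on the PBS arrays. Its difference was -0.056 ± 0.060 (adjusted p = 0.824 by limma), and all 4 PDGF-CC arrays were below the PBS mean, which PBS array 3 raised: without that array the difference was -0.014. Marveld2 lies beside Ocln in the genome, with 1 annotated gene between them. Lsr encodes angulin-1, which brings tricellulin to the corners. It was at 9.22, 9.31, 9.42 and 9.39 on the PDGF-CC arrays and at 9.27, 9.26 and 9.60 on the PBS arrays, where PBS array 3 stood highest. The difference was -0.042 ± 0.098 (adjusted p = 0.926 by limma). It was 0.067 without PBS array 3. The dimmer probe set of Lsr had the other sign, at 0.11 ± 0.087 (adjusted p = 0.781 by limma), with its low value of 5.87 on PBS array 2.

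F11r encodes junctional adhesion molecule A, an immunoglobulin-type protein of the junction that platelets also carry. Its level was 9.87, 9.87, 9.91 and 9.92 on the PDGF-CC arrays and 9.76, 9.53 and 10.11 on the PBS arrays. The PDGF-CC arrays were nearly equal (SD 0.025) while the PBS arrays were spread on both sides of them (SD 0.29). The difference was 0.091 ± 0.13 (adjusted p = 0.860 by limma). It was -0.043 without PBS array 2 and 0.25 without PBS array 3. Platelet markers had a mean of 5.91 to 6.60 on the PDGF-CC arrays and 6.13 to 6.49 on the PBS arrays, with 2 of 5 higher and 3 lower.

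Tjp1, which encodes the scaffold ZO-1, was at 11.28, 11.26, 11.48 and 11.40 on the PDGF-CC arrays and at 11.39, 11.19 and 11.37 on the PBS arrays. The groups overlapped in part, and the difference was 0.036 ± 0.079 (adjusted p = 0.920 by limma). Cgn encodes cingulin, a plaque protein that links the junction to actin and microtubules. It was at 6.52, 5.68, 5.80 and 6.20 on the PDGF-CC arrays and at 5.73, 5.91 and 5.73 on the PBS arrays. PDGF-CC arrays 1 and 4 were above all others, and PDGF-CC array 2 was the lowest of the 7. The difference was 0.26 ± 0.20 (adjusted p = 0.781 by limma; exact permutation p = 0.343). Without PDGF-CC array 1 it was 0.10. The genes nearest to Cgn in pattern were Gbx2 and Zswim1, at a root mean square difference of 0.12 each. Both were highest on PDGF-CC array 1, which a choice by pattern favours.

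**Figure D3:**
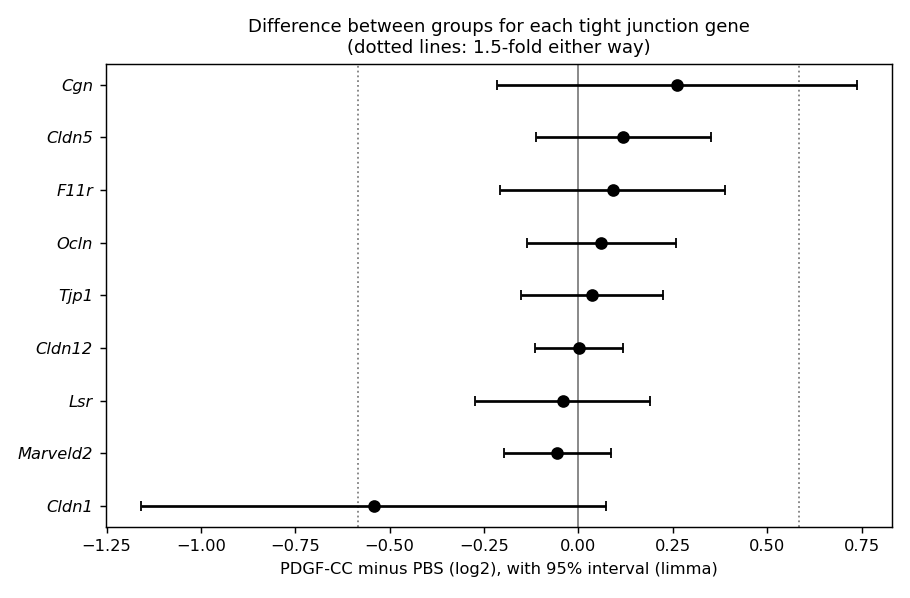
PDGF-CC minus PBS for each of the 9 genes (log2, points) with its 95% interval from limma (bars), and dotted lines at a 1.5-fold change. Every interval crosses 0, and those of Cldn1 and Cgn pass a dotted line.

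The 7 arrays correlated at 0.982 to 0.992 over the probe sets tested. They were not equally even: limma array weights, lower for arrays that deviate more from their group, were lowest for PDGF-CC array 1 and PBS array 2. These had 0.64 each, against 0.85 to 1.52 for the other arrays. PBS array 2 was the lowest array for 4 of the 9 genes (Cldn5, Ocln, F11r and Tjp1), against 18.1% of all probe sets tested, and the highest for Cldn1. PBS array 3 was the highest for 3 of them (Marveld2, Lsr and F11r). The share of all probe sets highest on PBS array 3 was not computed. The mean of brain endothelial markers was also highest there, at 10.61. The 15 brain endothelial markers above the filter, among them Cdh5 at 11.11 to 11.23 and Pecam1 at 11.12 to 11.27, had a mean between 10.41 and 10.54 on the PDGF-CC arrays and between 10.41 and 10.61 on the PBS arrays, with PBS array 2 and PDGF-CC array 1 level at the low end. With each array scaled to this mean, an alternative added after seeing the data, 0 of the 9 passed, and the differences were 0.15 for Cldn5, -0.51 for Cldn1, 0.12 for F11r and -0.011 for Lsr. Microglial markers were also low on PBS array 2, at 9.43 against 9.86 to 9.97 on the other arrays. What part this array's cell mixture had in the values was not tested.

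**Figure D4:**
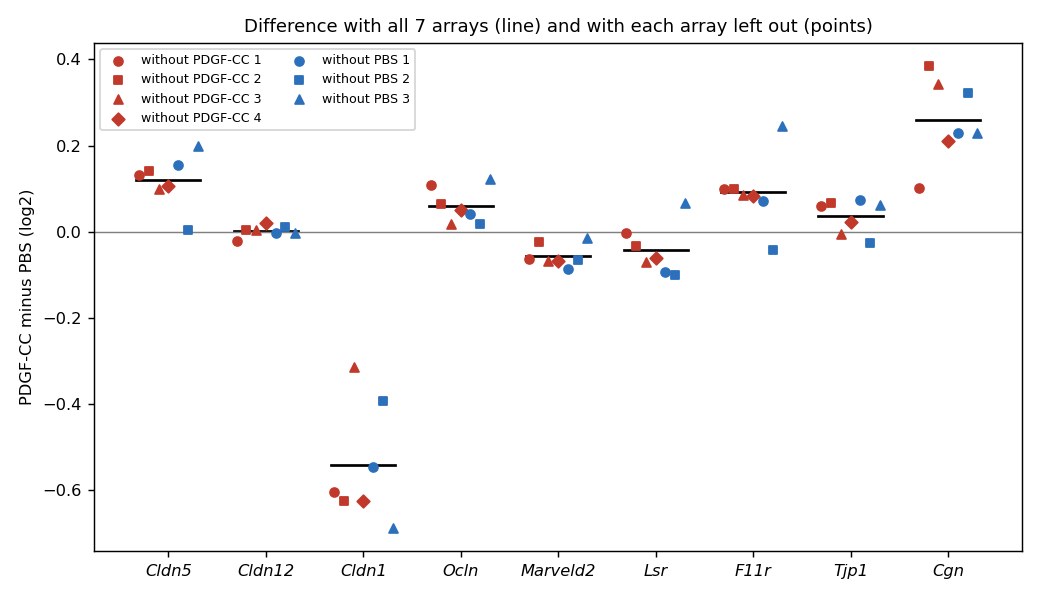
PDGF-CC minus PBS (log2) for each gene with all 7 arrays (line) and with 1 array left out (points, red for a PDGF-CC array and blue for a PBS array). Cldn5 is near 0 without PBS array 2, at 0.0036, and F11r runs from -0.043 without PBS array 2 to 0.25 without PBS array 3.

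The wider junction machinery was read from 5 lists of 76 further genes, of which 71 had a probe set of their own and 60 were above the filter. Of the 60, 0 passed the adjusted threshold, 2 (3.33%) passed an unadjusted threshold of 0.05, and 1 (1.67%) had groups that did not overlap. Both shares were below those over all single-symbol genes tested, 5.88% and 4.18%. By their means 29 were higher, 30 lower and 1 equal on all arrays (Patj), with a median difference of -0.00070 on the log2 scale, against -0.0029 over all 15582 single-symbol genes tested.

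Of 21 other claudins and claudin relatives with a probe set, 11 were above the filter. Cldn19, a claudin of Schwann cells and kidney, was the gene whose groups did not overlap. It was at 6.14, 5.73, 5.49 and 5.46 on the PDGF-CC arrays and at 5.36, 5.46 and 5.39 on the PBS arrays, a gap of less than rounding between the nearest arrays. The difference was 0.30 ± 0.16 (adjusted p = 0.769 by limma), and 0.16 without PDGF-CC array 1. That array was the highest for 5 of the 11 claudins, against 15.1% of all probe sets tested, as it was for Cgn. Besides Cldn19 these were Cldn4, Cldn7, Cldn9 and Cldn18, which were dim. Their PBS means were 4.36, 4.26, 4.46 and 4.29 in that order, near the brightness filter. The part of weak signals in their scatter was not tested. The mean of 5 oligodendrocyte markers was also highest on PDGF-CC array 1, at 5.52 against 5.07 to 5.20 on the other arrays. Of the 5, 3 were highest there, and Mbp stood out most, at 6.98 against 5.49 to 5.98. Mog was highest on PDGF-CC array 2 and Cldn11, which is in both lists, on PBS array 3. The part of these markers was not tested. Cldn3, long discussed at the brain barrier, was at -0.041 ± 0.088, Cldn11 of myelin at -0.033 ± 0.083 and Cldn2 of choroid plexus at -0.053 ± 0.14. Cldnd1, a claudin-domain relative, was at 0.080 ± 0.065, Cldn18 at 0.055 ± 0.049 and Cldn4 at 0.11 ± 0.099. Cldn3, Cldn11 and Cldn2 each changed sign with PBS array 3 left out, to 0.030, 0.056 and 0.099 in that order.

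Of 9 genes of other membrane proteins, 4 were higher and 5 lower by their means. Jam2, an adhesion molecule of endothelial junctions, was at 10.27, 10.41, 10.45 and 10.45 on the PDGF-CC arrays and at 10.45, 10.54 and 10.58 on the PBS arrays. PBS array 1 equalled the 2 highest PDGF-CC arrays to 2 decimals, and the difference was -0.13 ± 0.066 (adjusted p = 0.769 by limma; exact permutation p = 0.114). Esam, the endothelial adhesion molecule, was at -0.10 ± 0.067 and Jam3, which binds Jam2, at -0.0014 ± 0.12. Esam was at -0.034 without PBS array 3, and Jam3 changed sign in 8 of 16 alternatives. Marveld3, a relative of occludin, was at 0.094 ± 0.073 and Igsf5, which encodes JAM4, at 0.071 ± 0.064, or 0.0043 without PBS array 1. Of 20 plaque and polarity genes, 7 were higher, 12 lower and 1 equal by their means. The nearest to the threshold were Magi1, a scaffold (-0.19 ± 0.10), the polarity gene Llgl1 (0.19 ± 0.11), Amot, the gene of angiomotin (0.24 ± 0.13), and Pard6b of the Par polarity complex (0.14 ± 0.080). With 1 array left out Amot was at 0.077 and Llgl1 at 0.079 (both without PBS array 2), Magi1 at -0.094 (without PBS array 1) and Pard6b at 0.078 (without PDGF-CC array 2). Cgnl1, the gene of paracingulin, a relative of cingulin, was at 10.45 to 10.50 on the PBS arrays and 10.41 to 10.47 on the PDGF-CC arrays, a difference of -0.018 ± 0.046. Among turnover and contractility genes, with 6 of 11 higher, Arhgef2, whose protein cingulin binds, was at 0.16 ± 0.091, the tyrosine kinase gene Src at 0.096 ± 0.063, Vapa, whose protein binds occludin, at -0.056 ± 0.054 and the phosphatase gene Ppp2ca at 0.14 ± 0.14. Ppp2ca was at -0.0018 without PBS array 1.

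The 2 genes below the unadjusted threshold came from the list for transcription control of claudin-5 and occludin, so that role is why they were listed. Both were higher by their means. Sox18, an activator of Cldn5 in endothelium, was at 9.12, 8.89, 9.19 and 9.10 on the PDGF-CC arrays and at 8.36, 8.44 and 8.91 on the PBS arrays. Only PBS array 3 reached into the PDGF-CC range, by a small margin over PDGF-CC array 2. The difference was 0.50 ± 0.14 (adjusted p = 0.769 by limma; exact permutation p = 0.0571), and it ran from 0.40 to 0.68 over the alternatives. Snai2, the gene of the repressor Slug, was at 8.11, 7.91, 8.15 and 8.20 on the PDGF-CC arrays and at 7.81, 7.74 and 7.91 on the PBS arrays. PBS array 3 and PDGF-CC array 2 were equal to 2 decimals. The difference was 0.27 ± 0.085 (adjusted p = 0.769 by limma; exact permutation p = 0.0857), in a range of 0.23 to 0.34. Snai1, the gene of the repressor Snail, named here after its values were seen, was at -0.21 ± 0.13, with all 4 PDGF-CC arrays below the PBS mean (adjusted p = 0.770 by limma). Of the other 6 factors and regulators tested, Ctnnb1, which encodes beta-catenin, was at -0.13 ± 0.080 and Sox17 at 0.12 ± 0.076. Lsr, F11r and Ocln, the genes with a Snail E-box in a window above, had differences of -0.042, 0.091 and 0.060, and Cldn5 one of 0.12.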

How the data were processed

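The deposited table holds log2 values of 33793 probe sets on 7 arrays. The submitters' processing notes list RMA, limma and Affymetrix Expression Console, without roles, order or versions. RMA corrects background, equalises distributions and summarises probes by medians. That the deposited values are log2 was read from their range. The genome build is not given in the sources used here. Only promoter coordinates of RefSeq are printed. Per the labels' protocols, 10 ng of RNA was amplified per sample.

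The test covered the 17734 probe sets that carry a symbol and whose average over the arrays exceeded log2 4.145 (30th percentile). The groups were compared with limma 3.58.1 (lmFit, then eBayes; R 4.3.3), 2-sided, without covariates, and p-values were adjusted by Benjamini-Hochberg over all tested (threshold 0.05). The fit was tested on simulated data. The genes and lists were chosen with earlier results of these data known. Named were the 9 genes, up to 4 genes of smallest p from each of 5 further lists and a few fixed relatives (one is not reported here). The genes named by likeness of pattern were the 3 nearest for Cldn5 and the 2 members of widest spread, and some are given. Alternatives changed the filter, prior, normalization, array weights, covariate, block and arrays. The number of arrays limits the precision. Figures were drawn with matplotlib 3.10.9.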

Additional observations from a re-analysis of the deposited data

Results flagged for a closer look

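Among the 4 PDGF-CC arrays, the gap between an extreme array and its nearest neighbour, as a share of the group's range, passed the 95% limit of Dixon's criterion for 11 of 47 genes and marker lists examined. Chance passes about 1 in 20 for values without ties, and ties, which shrink the rest of the range, were common here. Of the 9 tight junction genes, Cldn1 passed it with a share of 0.928 (PDGF-CC array 3 at 4.90, the next at 5.77) and Marveld2 with 0.928 (array 2 at 6.33, the next at 6.44).

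Further junction genes past the limit were Cldnd1 at 0.875, Marveld3, Igsf5 and Magi1 at 1, Llgl1 and Cgnl1 at 1, Pard6b at 0.896 and Arhgef2 at 0.911. Where the share is 1, the other 3 arrays of Marveld3, Igsf5, Magi1, Llgl1 and Cgnl1 held the same value. Neutrophil and monocyte markers passed with 0.967, with PDGF-CC array 4 lowest at a mean of 5.30 against 6.17 for the next.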

How the results depend on the processing

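None of the 9 genes passed the adjusted threshold in the 145 combinations of gene and alternative tried, nor did any of the other junction genes, and the lowest adjusted p of the 9 was 0.654. Over all probe sets, where the count was 0 with all arrays, 3 passed with arrays centred on their median, 3 with a robust, trended prior and 3 when dim probe sets were removed up to the 50th percentile. With quantile normalization repeated 1 passed, with arrays scaled to endothelial markers 2, and with each array left out in turn 0 to 1 (1 without PDGF-CC array 3). All of these were lower after PDGF-CC and none is a junction gene.

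Signs turned in 11 combinations, for Cldn12, Lsr, F11r and Tjp1. Cldn12 was at -0.0081 with array weights and -0.013 with the description number as a covariate, and ran from -0.023 to 0.019 with arrays left out. Lsr was at 0.020 with that covariate, at 0.035 as the mean of both probe sets, and ran from -0.099 to 0.067 with arrays left out. F11r ran from -0.043 to 0.25 and Tjp1 from -0.027 to 0.073 with arrays left out. The cause of these turns was not tested.

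The numbers in the sample titles do not pair the samples by the labels. Deviations of same-numbered arrays correlated at 0.084 to 0.16, against -0.22 to 0.32 for differently numbered ones, highest for PDGF-CC array 4 with PBS array 3. The sample descriptions number PDGF-CC arrays 1, 2, 5 and 6 and PBS arrays 3, 4 and 7. Between groups, deviations correlated at 0.040 to 0.16 within description numbers 1 to 4 and at 0.084 and 0.32 within 5 to 7. Across these sets they correlated at -0.22 to -0.0075. This split was made after the values were seen, and a batch was not tested. With the number in the sample titles as a replicate block the count of probe sets called was 0. Cldn1 was then at -0.63 ± 0.13 (adjusted p = 0.654 by limma), below the unadjusted threshold. Array 4 of PDGF-CC has no partner and adds nothing to that estimate.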
